A study of Mus musculus with 6 samples.

Results

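The receptor chains for interleukin 2 (IL-2) and interleukin 15 (IL-15), the Janus kinases JAK1 and JAK3 that bind those chains, and the transcription factors STAT5A and STAT5B form a signalling module of 8 genes: Il2ra, Il2rb, Il2rg, Il15ra, Jak1, Jak3, Stat5a and Stat5b. They were compared between mouse CD8+ T cells kept in IL-15 and cells kept in IL-2. Every probe set whose platform annotation carried one of these symbols, alone or with other symbols, was taken, whatever its values. This gave 12 probe sets for 7 of the 8 genes, out of 15964 genes named alone by a probe set. No probe set used here carried the symbol Il2rg, which encodes the common gamma chain, so its transcript is not described.

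The cells came from P14 mice, female and of C57Bl/6 background, whose transgenic T cell receptor recognises a viral peptide. Spleen and lymph node cells of these mice received the peptide for 2 days and then 1 cytokine for 7 days. Cells given IL-15 are labelled central memory (CM) and cells given IL-2 effector/effector memory (E/EM). The CM cells were sorted for a high and the E/EM cells for a low level of a surface marker. All groups thus share the transgene, the peptide and the strain, and the cytokine and the sort gate cannot be told apart in the comparison. Total RNA of each kind of cell was hybridised to 1 array each of 3 types (SubA, SubB and SubC) that carry different probe sets, 6 arrays in all. There is no replicate array, so no test was possible and no p-value is given, and the labels do not say how many mice or cultures contributed.

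IL-2 and IL-15 act through the same pair of signalling chains, IL-2 receptor beta and the common gamma chain, which carry JAK1 and JAK3. Cytokine binding lets these kinases phosphorylate the receptor and STAT5, which then moves to the nucleus. What separates the cytokines is the third chain. The IL-2 receptor alpha chain (CD25) raises affinity for IL-2 on the responding cell, whereas the IL-15 receptor alpha chain binds IL-15 and often presents it from a neighbouring cell. In activated T cells Il2ra is itself induced, through NF-kappaB after antigen and through STAT5 in response to IL-2.

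Among these genes the difference lay in the IL-2-specific alpha chain. Il2ra was 5.72-fold lower in CM than in E/EM cells. The shared beta chain Il2rb and the kinase gene Jak3 were lower in CM cells by 1.33-fold and 1.5-fold, and Il15ra, Jak1, Stat5a and Stat5b lay within 1.18-fold of equal signal. All 12 probe sets exceeded the floor of their array type in CM and in E/EM cells. In CM cells 1 of them was at least 2-fold lower, and 0 were at least 2-fold higher. The floor is a level that few control probe sets for bacterial transcripts exceeded. It lay at 31.28 for SubA, at 88.12 for SubB and at 194.34 for SubC. Among all probe sets above it on both arrays, 4.3% of SubA, 6.23% of SubB and 8.06% of SubC were at least 2-fold lower in CM cells. Those at least 2-fold higher made up 2.31%, 3.46% and 7.33%. The median log2 ratio, always given as CM over E/EM, was 0.09 over the 12 probe sets, against 0.00265 over all probe sets measured. Over the means of the 7 genes it was -0.05, with 4 below 0 and 3 above, against -0.00254 over all genes.

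**Figure D1:**
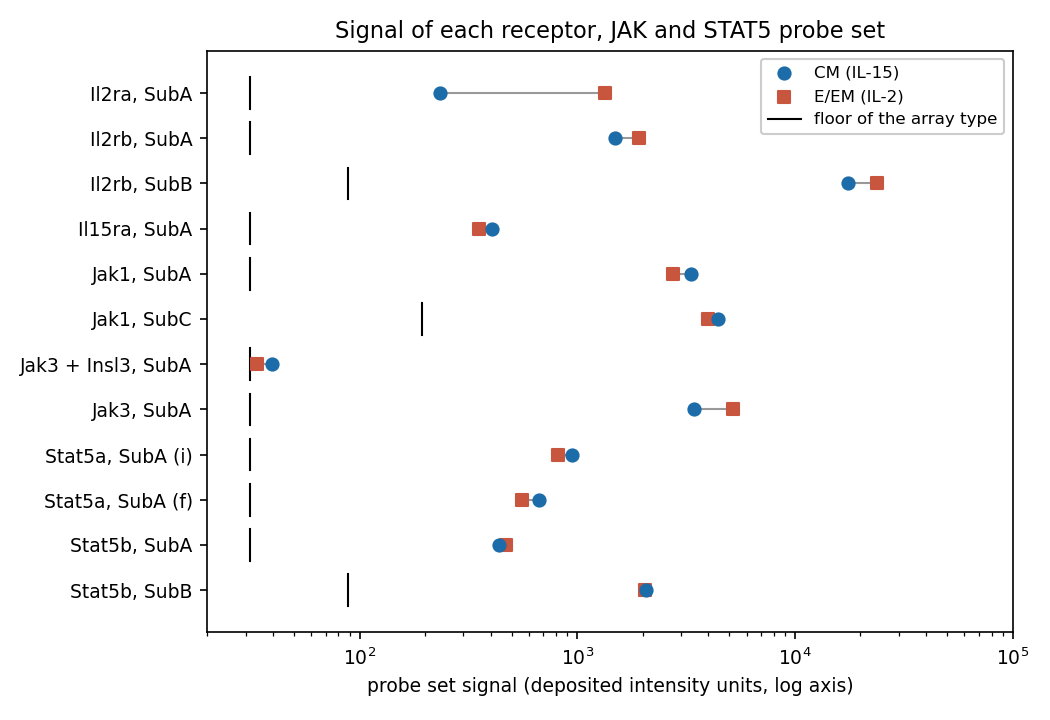
Signal of each of the 12 probe sets in CM cells (blue circles) and E/EM cells (red squares), 1 array each, on a log axis in the deposited intensity units, with the floor of the array type as a black tick; (i) and (f) are the 2 Stat5a probe sets. The Il2ra pair is the only widely separated one, 234.2 against 1340.7, and the probe set shared by Jak3 and Insl3 sits next to its floor.

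How far different measurements of one gene differ sets a scale for these values. The standard deviation (SD) of the log2 ratio over the probe sets of a gene had a median of 0.321 over 4094 genes with at least 2 measured probe sets. The array types also share control probe sets, and 32 of these, above the floor on all arrays, had a median SD of 0.24 across the 3 types. Both figures describe spread between measurements and say nothing of the spread between cultures. A gene's ratio differed between SubA and SubB by a median of 0.354 over 1247 genes, and between SubA and SubC by a median of 0.474 over 886 genes.

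Of the receptor chains, Il2ra was measured by 1 probe set, on SubA. Its signal was 234.2 in CM and 1340.7 in E/EM cells. The log2 ratio was -2.52, larger in size than the median SD of 0.321, and the CM signal was still 7.49 times the floor. Counted from the lowest, this ratio had rank 42 among 7926 measured SubA probe sets. A difference of this size in either direction was seen in 0.606% of all measured SubA probe sets and in 0.901% of the 2775 whose mean signal lay within 2-fold of that of Il2ra. In bulk RNA, fewer cells with the transcript and less transcript per cell cannot be told apart, so the value does not say whether all CM cells or some of them carried less Il2ra RNA.

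The promoter of Il2ra is shown because this gene carries the difference. The RefSeq window (build GRCm38.p6, plus strand, chr2:11642542-11642791) covers the 250 bases before the annotated start. Capitals mark 2 overlapping matches to the NF-kappaB consensus, which begin at positions -201 and -200 from the start.

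Il2ra: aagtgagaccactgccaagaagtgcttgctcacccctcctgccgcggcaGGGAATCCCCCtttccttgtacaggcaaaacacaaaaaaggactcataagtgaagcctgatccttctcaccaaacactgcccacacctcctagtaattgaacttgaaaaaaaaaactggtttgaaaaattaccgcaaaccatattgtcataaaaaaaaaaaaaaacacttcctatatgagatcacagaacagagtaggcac

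Windows of 300 bases, from 250 before to 50 after a start, were found for 7 of the 8 members, 10 windows in all since some genes have several starts. Il2rb had no window. Both strands were searched. The NF-kappaB consensus occurred in 2 of the 10 windows, that of Il2ra and 1 of those of Stat5a, and in 8.46% of 32851 windows of all genes. The STAT5 motif TTCNNNGAA, which reads the same on both strands, occurred in 0 of the 10 and in 8.3% of all windows. The STAT5 elements described for Il2ra lie outside this window, further upstream and in the gene body, so the missing letters show only what this window holds.

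Il2rb encodes the beta chain, the signalling subunit that both cytokines use and the docking site for STAT5. Its SubA probe set had a signal of 1494.4 in CM and 1931.6 in E/EM cells, a log2 ratio of -0.37. Its SubB probe set had 17506.1 and 23890.3, a log2 ratio of -0.45. Both array types thus gave a lower signal in CM cells, 1.29-fold and 1.36-fold, and the gene's mean was -0.41 ± 0.06 (SD, 2 probe sets). That size is ordinary for these arrays. A difference at least as large was seen in 36.1% of SubA probe sets and in 40.7% of SubB probe sets. After quantile normalization, which forces both arrays of a type to one distribution, the SubB ratio was -0.89 and the SubA ratio -0.38.

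Il15ra encodes the IL-15-specific alpha chain and is the direct neighbour of Il2ra on chromosome 2, with 0 protein-coding genes between them. Its SubA probe set had a signal of 404.3 in CM and 354.1 in E/EM cells. The log2 ratio of 0.19 is smaller than the median SD, and 61.2% of SubA probe sets had a ratio at least as large in size. The adjacent alpha chain genes therefore had unequal ratios on the same pair of arrays, and the signal of Il2ra relative to Il15ra was 6.54-fold lower in CM cells. Relative to Il2rb on SubA it was 4.43-fold lower.

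**Figure D2:**
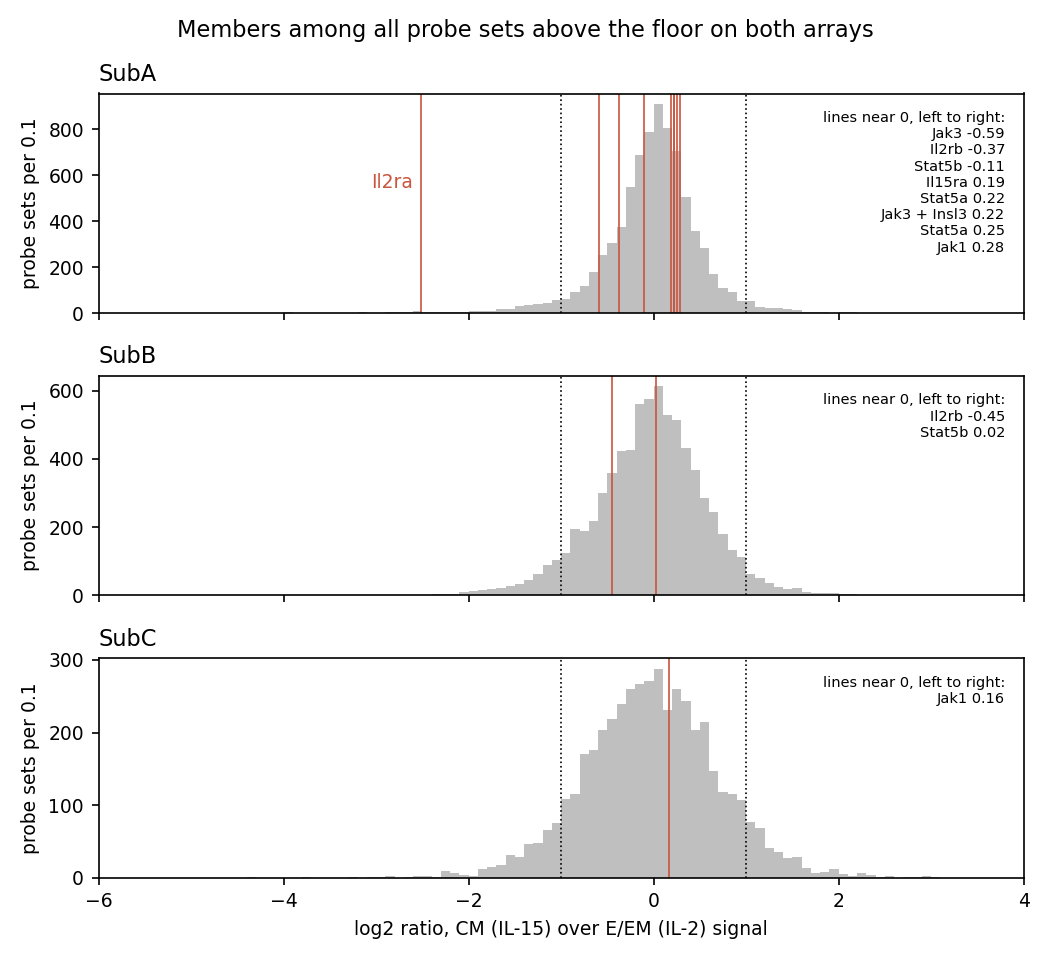
Number of probe sets per 0.1 of log2 ratio (CM over E/EM signal) for all probe sets above the floor on both arrays of SubA, SubB and SubC, with red lines at the members and dotted lines at 2-fold. Il2ra at -2.52 stands in the sparse lower tail of SubA, and the other 11 lines lie between -0.59 and 0.28, inside the bulk of their array type.

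The kinase genes had ratios of opposite sign, both under 2-fold. Jak1 encodes the kinase carried by the beta chain, and also serves many other cytokine receptors. Its signals were 3327.2 in CM and 2740.8 in E/EM cells on SubA, and 4434.1 and 3971.2 on SubC, where the probe set name marks it as shared between transcripts. The log2 ratios of 0.28 and 0.16 gave a mean of 0.22 ± 0.09 (SD, 2 probe sets), a slightly higher signal in CM cells on both types. On SubA 46.8% of probe sets, and on SubC 81.5%, had a ratio at least as large in size.

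Jak3, whose product binds the common gamma chain, had 1 probe set of its own, also marked as shared between transcripts. The signal was 3445.3 in CM and 5182.2 in E/EM cells, a log2 ratio of -0.59 or 1.5-fold lower in CM cells. This was the second lowest ratio of the 12 probe sets, and 18.2% of all SubA probe sets, or 8.92% of the 796 with a similar signal, had one at least as large in size. A second SubA probe set was annotated to both Jak3 and Insl3, a hormone gene, and had signals of 39.5 and 33.9, only 1.08 times the floor. Its ratio of 0.22 cannot be assigned to either gene and rests on signals near background. On the same arrays, the Jak3 log2 ratio minus that of Jak1 was -0.87, a 1.83-fold relative difference.

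Stat5a and Stat5b encode the closely related factors that carry the signal to DNA, and they lie side by side on chromosome 11 with 0 protein-coding genes between them. The 2 Stat5a probe sets, both on SubA and both designed on one database sequence, are not independent. They had signals of 950.5 and 664.1 in CM cells and 816.2 and 556.6 in E/EM cells, for log2 ratios of 0.22 and 0.25. The name of the first marks it as irregular. The second is named as a probe set that can match a gene family, so part of its signal may come from Stat5b. Stat5b had signals of 436.2 and 469.5 on SubA, a log2 ratio of -0.11, and of 2073.4 and 2051.8 on SubB, a ratio of 0.02. Its sign differed between the array types and its mean of -0.05 ± 0.09 (SD, 2 probe sets) was close to 0. Stat5a lay above Stat5b on SubA by 0.34, about the size of the median SD of 0.321, so the order of the pair is not settled by these arrays.

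The 3 genes measured on 2 array types, Il2rb, Jak1 and Stat5b, gave ratios that differed between types by 0.08, 0.12 and 0.12. Each is less than the median difference of 0.354 or 0.474 between the same types over all genes. After quantile normalization the differences were 0.51, 0.23 and 0.09, and that of Il2rb was then above the median of 0.363 over all genes. In order from most reduced to least reduced in CM cells, the gene values were -2.52 for Il2ra, -0.59 for Jak3, -0.41 for Il2rb, -0.05 for Stat5b, 0.19 for Il15ra, 0.22 for Jak1 and 0.24 for Stat5a. Only the step from Il2ra to Jak3 and the step from Il2rb to Stat5b exceed 0.321, and the second of these only narrowly.

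The SubA ratios nearest to that of Il2ra were sought among 6177 probe sets with 1 gene symbol and both signals at 2 times the floor or more. The 4 nearest belonged to Gadd45g (-2.51), Ell2 (-2.51), Il12rb1 (-2.54) and Lat2 (-2.57). Likeness here is the difference between log2 ratios on 1 pair of arrays, which many genes can share. Il12rb1 encodes a chain of the receptors for IL-12 and IL-23, and Gadd45g a stress- and cytokine-induced protein of T cells.

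Labels were checked against markers. All 8 CD8 T cell markers looked at exceeded the floor in CM and in E/EM cells, with a summed SubA signal of 49209.2 in CM and 48160.7 in E/EM cells, and Cd8a had 5882.7 and 5133.8. Of 5 natural killer cell markers 3 had no probe set of their own, and Ncr1 and Fcgr3 lay at or under the floor in CM and E/EM cells. Of the markers of other cells that can express Il2ra, some were detected and others lay under the floor. Among those with a gene value, more were lower in CM cells, as Il2ra was, than higher. Helper and regulatory T cell markers summed to 257.2 in CM and 382.6 in E/EM cells over 4 SubA probe sets. Zbtb7b alone, at 19.8 and 239.5, set the direction of this sum, which includes signals under the floor. Within that list 2 of 5 genes were above the floor in CM and 3 in E/EM cells. Zbtb7b, a factor of helper T cells, was at least 7.66-fold lower in CM cells on SubA and at least 9.74-fold lower on SubB. Ikzf4, a factor of regulatory T cells, had SubA signals of 86.3 in CM and 91.7 in E/EM cells. Its SubB probe set gave 381.8 against 521.9, and its SubC probe set was bright, 2713.4 against 6089.3. Its log2 ratios were -0.09, -0.45 and -1.17, below 0 on all 3 types, with a mean of -0.57 ± 0.55 (SD, 3 probe sets). Cd4 went the opposite way with 131.7 and 49.3, Cd40lg was under the floor in both, and Foxp3 was not analysed here. Mast cell and basophil markers summed to 294.2 and 578.2 with 3 of 6 above the floor in each. All 3 had gene values below 0. Kit was 3.64-fold lower in CM cells with 48.1 and 174.9. Tpsb2 had a log2 ratio of -0.65 ± 0.45 (SD, 2 probe sets), and Ms4a2 had -0.99. The other members, Fcer1a, Cpa3 and Mcpt4, were under the floor. Ms4a2 exceeded it only on SubC, at 510.1 and 1012.9, with 5.9 and 19.4 on SubA. Macrophage, monocyte and neutrophil markers summed to 503.6 and 732.4 with 4 of 9 above the floor. All 4 had gene values below 0. Cd68 was 2.23-fold lower in CM cells with 89.4 and 199.5. Cd14 had a log2 ratio of -0.63, Csf3r -0.5 and Csf1r -0.06. Adgre1, Lyz2, S100a8, S100a9 and Itgam were under the floor in CM and E/EM cells. Dendritic cell markers summed to 819.3 and 1213.3 with 6 of 6 above the floor, but 4 of the 6 had gene values below 0 and 2 above. H2-Ab1, a class II antigen presentation chain, had 211.0 and 516.5, and H2-Eb1 had 50.1 and 117.4 on SubA. Cd74 and Flt3 had log2 ratios of -0.74 and -0.19. The integrin gene Itgax was instead 3.02-fold higher in CM cells with 130.3 and 43.1, and H2-Aa had a log2 ratio of 0.34. B cell markers summed to 577.3 and 540.0, with 5 of 6 above the floor in CM and 4 in E/EM cells. Of their 4 gene values 2 lay below 0 and 2 above. The part of any such cells in the Il2ra difference was not tested.

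The rest of the pathway was compared through 80 further genes in 7 lists. Of these, 69 had a probe set of their own and 63 had a gene value, the mean log2 ratio over probe sets above the floor on both arrays. In CM cells 2 of the 63 (3.17%) were at least 2-fold lower, Cish and Gab2, and 0 were at least 2-fold higher. The shares among all 10946 genes with a value were 5.61% lower and 2.73% higher by the same rule, so neither share is above the background. The median of the 63 was -0.01, against -0.00254 for all genes, with 33 below 0 and 30 above.

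STAT5 target genes had a median of -0.01 over 14 measured members, with 7 below 0 and 7 above. Cish, which encodes a feedback inhibitor that binds activated cytokine receptors and is a standard readout of STAT5, had signals of 1579.9 in CM and 3319.6 in E/EM cells, a log2 ratio of -1.07 from 1 probe set. Pim2, a survival kinase, had -0.69 ± 0.16 (SD, 2 probe sets). In the opposite direction Socs3, an inhibitor of JAKs that STAT3 induces strongly as well, had 0.80 ± 0.09 (SD, 3 probe sets), with signals of 443.8 and 272.0, 653.6 and 353.5, and 329.9 and 189.0. The largest ratios of the targets thus lay on both sides of 0. The Cish window of RefSeq held 2 matches to TTCNNNGAA, which 0.457% of all windows do. They begin at positions 0 and 11 from the annotated start. The 30 bases around them (GRCm38.p6, plus strand, chr9:107296654-107296683) are shown with both matches in capitals. Windows of the other targets are not given. Since only 8.3% of all windows hold the motif, its absence from the 10 windows of the receptor, JAK and STAT5 genes sets no contrast.

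Cish: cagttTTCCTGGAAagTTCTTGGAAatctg

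The RAS and MAP kinase branch had a median of -0.19 over 8 measured genes, 5 below 0 and 3 above. Gab2, an adaptor that links cytokine receptors to PI3 kinase and to the phosphatase SHP2, was the lowest of all 63 pathway genes at -1.44 ± 0.09 (SD, 3 probe sets). Its SubB probe sets had signals of 143.8 in CM and 369.5 in E/EM cells, and of 228.3 and 612.4. Its SubC probe set had 285.4 and 832.3. All 3 gave the same direction at 2-fold or more on 2 array types, while its SubA probe set was under the floor in CM and E/EM cells at 9.4 and 14.3. With 50 added to every signal and no floor the Gab2 mean, then with the SubA probe set included, was -0.97. Sos2, an activator of RAS, had -0.55, and Map2k1, the kinase MEK1, had -0.38.

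In the PI3 kinase and mTOR branch 10 of 15 measured genes lay below 0 and 5 above, with a median of -0.01. Pik3cb, a catalytic subunit of PI3 kinase, had the lowest value, -0.87 with signals of 120.1 and 219.2 on SubB, close to the floor. Inpp5d, the phosphatase SHIP1, had -0.37 ± 0.19 and Mtor -0.30 ± 0.27 (SD, 2 probe sets each). Pik3cd, the main catalytic subunit of lymphocytes, had SubA ratios of -0.28 and 0.28, and its SubC probe set was above the floor in E/EM cells only, at least 2.48-fold lower in CM cells.

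The other JAK and STAT genes had a median of 0.18 over 6 genes, 3 on each side of 0. Stat4, which responds to IL-12, had 0.58 with signals of 2090.1 and 1400.5, Jak2 had 0.46 and Stat2 -0.47. Of the receptor-associated kinases and sorting adaptors, 5 were measured, with a median of 0.03. The SRC family kinase Fyn had 0.55, Syk 0.33 and Hgs, which sorts the beta chain for degradation, -0.21. Negative regulators of cytokine signalling had a median of -0.02 over 12 genes, 6 on each side of 0. The phosphatase CD45, encoded by Ptprc, had 0.53 ± 0.29 (SD, 2 probe sets), Pias4 -0.47 ± 0.16 (SD, 2 probe sets) and Pias2 0.30 ± 0.27 (SD, 4 probe sets). None of these lists held a gene past 2-fold.

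Ligands and other receptor chains of the gamma chain family were mostly dim. Il2 and Il15 themselves lay under the floor in CM and E/EM cells alike, at 2.9 and 1.3 for Il2 and at 1.3 and 16.4 for Il15. Of 9 genes with a probe set, 3 were measured, 3 were above the floor in E/EM cells only, with bounds from 1.14-fold to 1.49-fold, and 3 were under it in both. The IL-7 receptor alpha chain gene Il7r had -0.45 with signals of 601.0 and 820.9, and Il9 had 0.01. Il4ra, for the IL-4 receptor, had 0.08 with 3761.6 and 3568.0. Another Il4ra probe set on SubA was above the floor in E/EM cells only, at 28.7 in CM and 51.9 in E/EM cells. It gave a bound of at least 1.66-fold lower in CM cells.

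**Figure D3:**
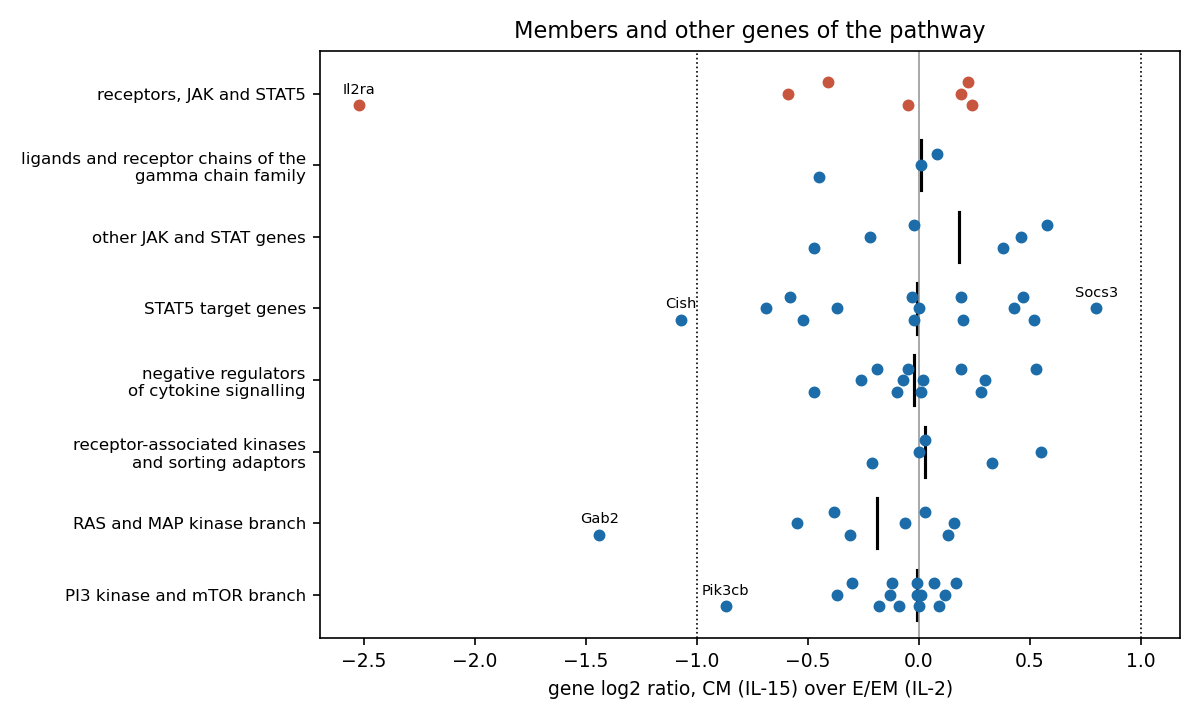
Gene log2 ratios, CM over E/EM, for the 7 measured receptor, JAK and STAT5 genes (red) and for the 7 lists of other pathway genes (blue), with black bars at the list medians, dotted lines at 2-fold and names at values of 0.8 or more in size. Il2ra, Gab2 and Cish lie beyond the lower line and no gene lies beyond the upper one. Vertical offsets within a row only separate points.

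**Figure D4:**
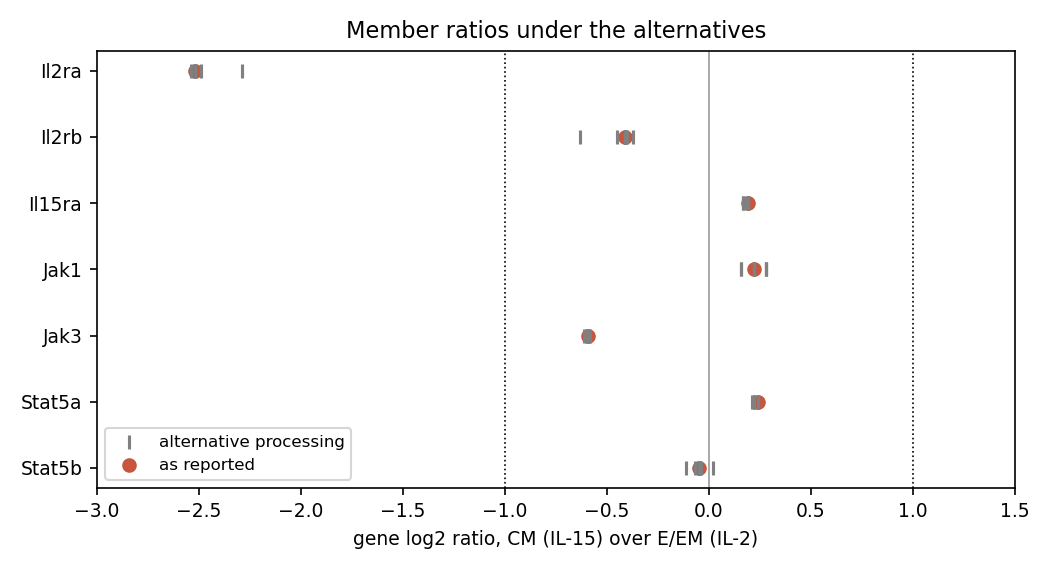
Gene log2 ratios of the 7 measured members as reported (red circles) and under alternative processing (grey ticks), with dotted lines at 2-fold. Il2ra stays between -2.54 and -2.29, and Stat5b is the only member with values on both sides of 0, from -0.11 to 0.02.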

How the data were processed

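Each array gave 1 linear intensity per probe set, as deposited by the authors in 1 table per array type. The sources used here do not say how the authors made them. The mean of each deposited array without its lowest and highest 2% lay between 499.33 and 499.86, so values were used without further normalization. The tables held 12488, 12477 and 11934 probe sets, 66 of them controls. Probe sets were named through the platform annotation of GEO. The Entrez identifiers of all members with a probe set matched RefSeq (GRCm38.p6).

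For each table the 90th percentile over 15 bacterial control probe sets was taken on both arrays, and the higher value was the floor. A probe set above it on both arrays gave a log2 ratio, and one above it on 1 array only a bound, signal over floor. A gene value is the mean over probe sets with that symbol alone. Calculations (Python 3.11.15, pandas 2.3.3, numpy 2.4.6) were tested on simulated data. The number of arrays limits the precision.

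The members and lists were chosen with earlier results of these data known. Named genes were all members, the 3 largest ratios of each pathway list, every pathway gene past 2-fold, and the 4 probe sets nearest to the largest member ratio. Other genes given with values, such as Pik3cd and those on markers, were chosen after their values were seen. Alternatives were other floors, quantile normalization, centring, a pseudocount of 50, the brightest probe set, fewer array types, and thresholds of 3-fold and 1.5-fold. A further one left out probe sets whose names mark them as shared or irregular.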

Additional observations from a re-analysis of the deposited data

How the results depend on the processing

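With a floor at percentile 60 over every probe set, 240.3 on SubA, the CM signal of Il2ra fell just under the floor. The count of member probe sets at least 2-fold lower was then 0, and Il2ra had a bound of at least 5.58-fold lower. A 1.5-fold threshold gave 2 member probe sets lower, with Jak3 added, and 4 pathway genes lower and 1 higher. A 3-fold threshold gave 0 pathway genes lower, and SubA alone gave 1, since Gab2 is under the floor there. With a pseudocount of 50 the count of lower pathway genes stayed at 2 but held Cish and Il21 (-1.5), which is under the floor in CM cells, and not Gab2. Every member gene kept its value within 0.321 under each alternative that could give one. Without shared or irregular probe sets Jak3 and Stat5a had no value. Of 271 other values, 267 moved by less than 0.321, 4 by more and 0 values past 2-fold changed sign. With the pseudocount Stat2 moved from -0.47 to -0.08, Fyn from 0.55 to 0.05 and Gab2 from -1.44 to -0.97. With the floor halved Il4ra moved across 0, from 0.08 to -0.39. Centring and quantile normalization shifted a table's median ratio by at most 0.06. No paired analysis was possible because each kind of cell has 1 array per array type and the labels give no replicate numbers.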
